A study of Mus musculus with 6 samples.

Results

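Germline genes are genes whose normal use is confined to egg and sperm precursors. The 10 followed here were Mov10l1, Mael, Asz1 and Tdrd1 of the piRNA pathway, Sycp1, Sycp3, Syce1 and Syce2 of the synaptonemal complex, the germ cell RNA-binding protein Dazl and the germ cell surface protein Tex101. They were chosen by symbol, with their levels in these libraries already in view, and all 10 were found among the 34591 gene rows. The libraries were 6 RNA-seq libraries of total RNA, made from mouse brain in a model of WNT medulloblastoma, which is a hindbrain tumour in which WNT signalling is switched on. Going by the labels, 3 are of the control model and 3 of the sh2-Ift88 model (called libraries labelled shIft88), in which a short hairpin RNA is directed at Ift88, a transport protein that builds primary cilia. The labels give no strain, age, sex, promoter or control hairpin, do not say what drives the tumours, and do not say whether each library is a separate animal. Spread between libraries may thus be partly technical, and in bulk tissue fewer cells of a type and less RNA per cell cannot be told apart.

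In the germ line, piRNAs are small RNAs that guide PIWI proteins to transposon transcripts, and the synaptonemal complex is the protein zipper that holds paired chromosomes together in meiosis. Most of these genes are kept silent in body cells by DNA methylation of promoters with an intermediate density of CpG dinucleotides, laid down by Dnmt3b and copied at each division by Dnmt1 with Uhrf1. A second layer of silencing comes from a Polycomb-type complex whose subunits Mga and Max bind the E-box CACGTG and whose subunit E2f6 binds E2F-type motifs. Tumours are known to express some germline genes outside the gonad.

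The promoters of the germline genes are shown first because CpG content and the E-box are what the silencing acts on. RefSeq promoter windows (GRCm38.p6, 250 bases before and 50 after a start site) were matched by symbol for all 10 genes, giving 13 windows, since Tdrd1 had 3 and Syce2 had 2. The sequences below are the parts of 4 windows that lie before every annotated start site of the gene, and a site of 30 bases for Syce2, whose E-box lies between its start sites. They stand for the pair of genes that were higher in every library labelled shIft88 (Mov10l1 and Syce2), a gene that varied without regard to the groups (Sycp1), the gene with most E-boxes (Sycp3) and a gene near background (Dazl). Capitals mark CACGTG, which reads the same on both strands, and the E2F-type motif GCGGGAA or its complement TTCCCGC. The rest is in lower case, 5′ to 3′ on the strand of the gene.
Mov10l1, chr15:88982744-88982908, + strand: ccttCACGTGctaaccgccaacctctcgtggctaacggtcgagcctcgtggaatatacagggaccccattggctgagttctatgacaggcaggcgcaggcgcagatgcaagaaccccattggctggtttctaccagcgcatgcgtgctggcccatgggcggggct
Syce2, chr8:84872158-84872187, + strand: cgtttcattcagCACGTGctcggggcgggg
Sycp1, chr3:102936101-102936350, - strand: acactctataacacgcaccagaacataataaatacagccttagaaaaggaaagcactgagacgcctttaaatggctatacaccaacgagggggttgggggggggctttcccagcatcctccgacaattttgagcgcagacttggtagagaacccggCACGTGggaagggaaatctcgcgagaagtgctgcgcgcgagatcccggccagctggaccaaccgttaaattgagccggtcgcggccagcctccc
Sycp3, chr10:88459337-88459568, + strand: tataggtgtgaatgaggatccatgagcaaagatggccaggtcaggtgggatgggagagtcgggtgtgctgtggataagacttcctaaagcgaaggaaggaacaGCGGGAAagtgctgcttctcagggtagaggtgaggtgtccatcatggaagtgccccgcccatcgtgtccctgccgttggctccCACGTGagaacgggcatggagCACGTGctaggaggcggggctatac
Dazl, chr17:50293637-50293870, - strand: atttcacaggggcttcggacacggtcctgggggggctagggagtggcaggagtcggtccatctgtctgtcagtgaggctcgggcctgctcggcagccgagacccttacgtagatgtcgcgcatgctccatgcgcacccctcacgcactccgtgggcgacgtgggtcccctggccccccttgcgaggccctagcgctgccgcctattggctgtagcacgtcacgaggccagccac

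Of the 10 genes, 6 held an E-box in at least 1 window: Mov10l1, Mael, Tdrd1, Sycp1, Sycp3 and Syce2. Among all 27025 genes with a window the share was 8.09%, and among the 10471 genes with at least 14 CpG in a window, as many as the germline gene with fewest, it was 12.8%. The E-box began 246 bases before the start site in Mov10l1, 223 in Mael, 94 in Sycp1 and 88 in the second window of Syce2. Sycp3 had a pair of them, at 64 and 43 bases. GCGGGAA or its complement stood in 2 of the 10 genes, Sycp3 and Syce2, and no match overlapped an E-box. The share was 5.29% over all genes and 11.2% over the genes with at least 14 CpG. For each gene the window with most CpG held between 14 (Syce1) and 33 (Syce2), with a median of 20.5, against a median of 8 over all genes. Asz1, Syce1, Dazl and Tex101 held neither motif, which says only that these letters are not in these windows. A motif match is a description of the sequence and was not measured as binding.

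**Figure D1:**
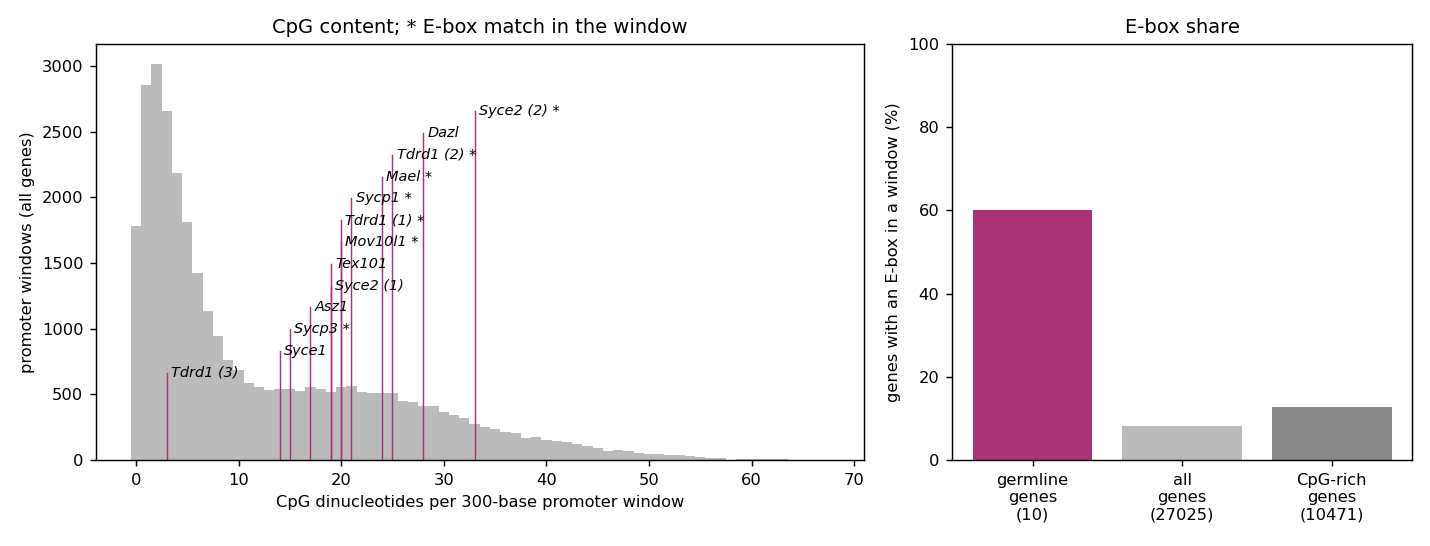
Left, number of RefSeq promoter windows of 300 bases (vertical axis, all genes) by number of CpG dinucleotides (horizontal axis), with the 13 windows of the germline genes as lines and an asterisk where a window holds an E-box. Right, percent of genes with an E-box in at least 1 window for the 10 germline genes (60.0%), all genes (8.09%) and genes with at least 14 CpG (12.8%). The third window of Tdrd1, with 3 CpG, stands apart from the other windows.

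Libraries were sequenced to 26802618 to 33772559 gene counts. Reads of olfactory receptor genes, a family of 1249 rows used mainly by the sensory neurons of the nose, served as a measure of reads from genes taken to be silent. In control 1, control 3 and shIft88 1 between 1.92% and 3.04% of these rows had at least 1 read, against 39.4% in control 2, 45.2% in shIft88 2 and 31.0% in shIft88 3. A count of 10 or more was reached by 2 to 6 of the 1249 rows in a library. By that measure counts of 1 to 4 are close to background in the libraries with many such reads and counts above 10 are not. The measure makes no allowance for gene length, and exon length ran from 1.26 kb (Sycp3) to 5.44 kb (Tdrd1) among the 10 genes. Library shIft88 3 also stood apart in that the rows Gm10800 and Gm16869 took 20.3% and 12.8% of its counts, and its scaling factor (TMM) was 0.5978 against 1.049 to 1.238 in the others. Levels are counts-per-million values (CPM) scaled by these factors, so the choice of scaling bears most on shIft88 3. The targeted transcript was not lower: Ift88 was at 13.8, 19.7 and 13.7 CPM in the controls, against 14.7, 16.0 and 14.4 CPM under the shIft88 label, so directions below are those of the labels. The WNT target Wif1 was at 1344 CPM or more in every library. Of 5 markers of WNT tumours, 4 (Wif1, Nkd1, Axin2 and Lef1) reached 1 CPM in every library, and Dkk4 did so in none. With no library of normal brain, these levels cannot check the tumour label.

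Germline genes with at least 1 read numbered 5, 9 and 5 of 10 in the controls, against 6, 10 and 9 under the shIft88 label. The higher numbers were those of control 2, shIft88 2 and shIft88 3, the same libraries in which olfactory receptor rows were detected. At a level of at least 1 CPM the numbers were 0, 1 and 1 in the controls, against 2, 4 and 4 under the shIft88 label. In shIft88 1, a library with few olfactory receptor reads, the genes at 1 CPM were Mov10l1 and Syce2. In shIft88 2 they were Mov10l1, Tdrd1, Sycp1 and Syce2, and in shIft88 3 they were Mov10l1, Tdrd1, Syce2 and Tex101. Because the genes were chosen on these values, the counts describe the libraries and test nothing.

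**Figure D2:**
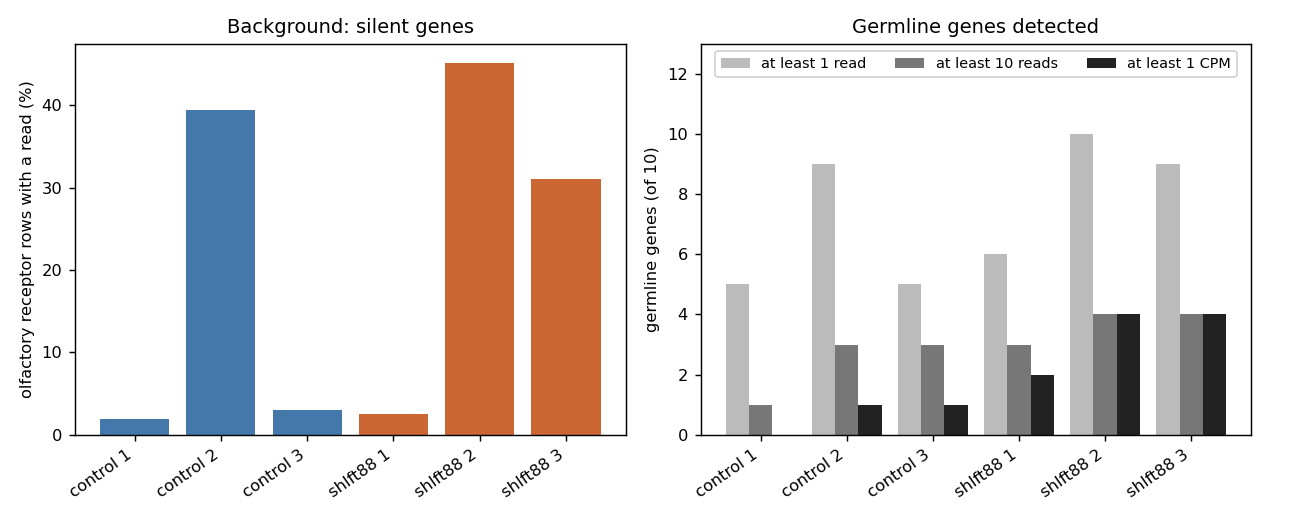
Left, percent of the 1249 olfactory receptor rows with at least 1 read in each library. Right, number of the 10 germline genes with at least 1 read, at least 10 reads or at least 1 CPM in each library. Detection at 1 read is highest where olfactory receptor rows are detected, while the number at 1 CPM is 2 in shIft88 1, where 2.48% of those rows had a read.

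Over all genes, the comparison of the libraries labelled shIft88 with the controls called none. Of 16768 genes tested with edgeR's quasi-likelihood test, 0 passed at an adjusted p of 0.05 (0% called), the smallest adjusted p was 0.9995, and 541 genes had an unadjusted p of at most 0.05. DESeq2 called 75 genes, 58 higher and 17 lower, and limma-voom called 0. Of the germline genes, 4 passed the filter on low counts (Mov10l1, Tdrd1, Sycp1 and Syce2), and 6 did not. Every library labelled shIft88 lay above every control for 2 of the 10 genes, Mov10l1 and Syce2. The same order was seen for 4.10% of the 31004 rows with a read and for 4.68% of the tested genes. With library totals alone in place of TMM it was seen for 1.70% of the rows with a read, and for Mov10l1 and Syce2 again. That scaling moved the median log2 fold change of all tested genes by -0.31, from -0.01 to -0.33. As the genes were chosen on this contrast, nothing is read from that count, and no p-value is given for any of the 10.

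Among the 4 piRNA genes, Mov10l1 had the largest difference between the groups. It encodes the RNA helicase that feeds transcripts into piRNA production, and its body-cell relative is Mov10. Its counts were 2, 2 and 0 in the controls, against 180, 46 and 46 under the shIft88 label. Scaled, these were 0.0605, 0.0650 and 0 CPM in the controls, and 5.08, 1.54 and 2.87 CPM in the libraries labelled shIft88. The 95% exact Poisson interval of the 0 in control 3 reaches 0.0911 CPM. All controls lay at or near 0 and the groups did not overlap. The summed counts, 272 against 4, gave a ratio of 87.3 with a 95% exact binomial interval of 33.7 to 323, which covers counting error only. On the scale of log2(mean CPM + 0.5) the difference was 2.76. It was 2.26 among control 2, shIft88 2 and shIft88 3, the libraries with many olfactory receptor reads, and 3.40 among the others, and each of these rests on a single library in one group. A count of 46 or more was reached by 4 of 1249 olfactory receptor rows in shIft88 2, by 2 in shIft88 3, and 180 or more by 0 in shIft88 1.

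Tdrd1, a tudor-domain scaffold that binds PIWI proteins, was present in every library. Its counts were 10, 13 and 10 in the controls, against 3, 30 and 49 under the shIft88 label, or 0.303, 0.422 and 0.247 against 0.0847, 1.01 and 3.06 CPM. The libraries labelled shIft88 thus held both the lowest and the highest level, and the groups overlapped. The log2 difference was 1.19 with all libraries, 0.34 without shIft88 3, and turned to -0.41 among the libraries with few olfactory receptor reads, where shIft88 1 alone stands against controls 1 and 3.

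Mael, which acts in transposon silencing in germ cells, and Asz1, a mitochondrial scaffold of the piRNA granule, were not distinguishable from background. Mael had 0, 3 and 0 reads in the controls, against 0, 2 and 2 under the shIft88 label. Asz1 had 0, 1 and 0 reads in the controls, against 0, 3 and 1 under the shIft88 label. Both had reads only in control 2, shIft88 2 and shIft88 3, where a count of 3 or more was reached by 3.60% of olfactory receptor rows in control 2 and by 6.16% in shIft88 2. In the other libraries the exact Poisson interval of a count of 0 reaches 0.112 CPM in control 1, 0.0911 CPM in control 3 and 0.104 CPM in shIft88 1.

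**Figure D3:**
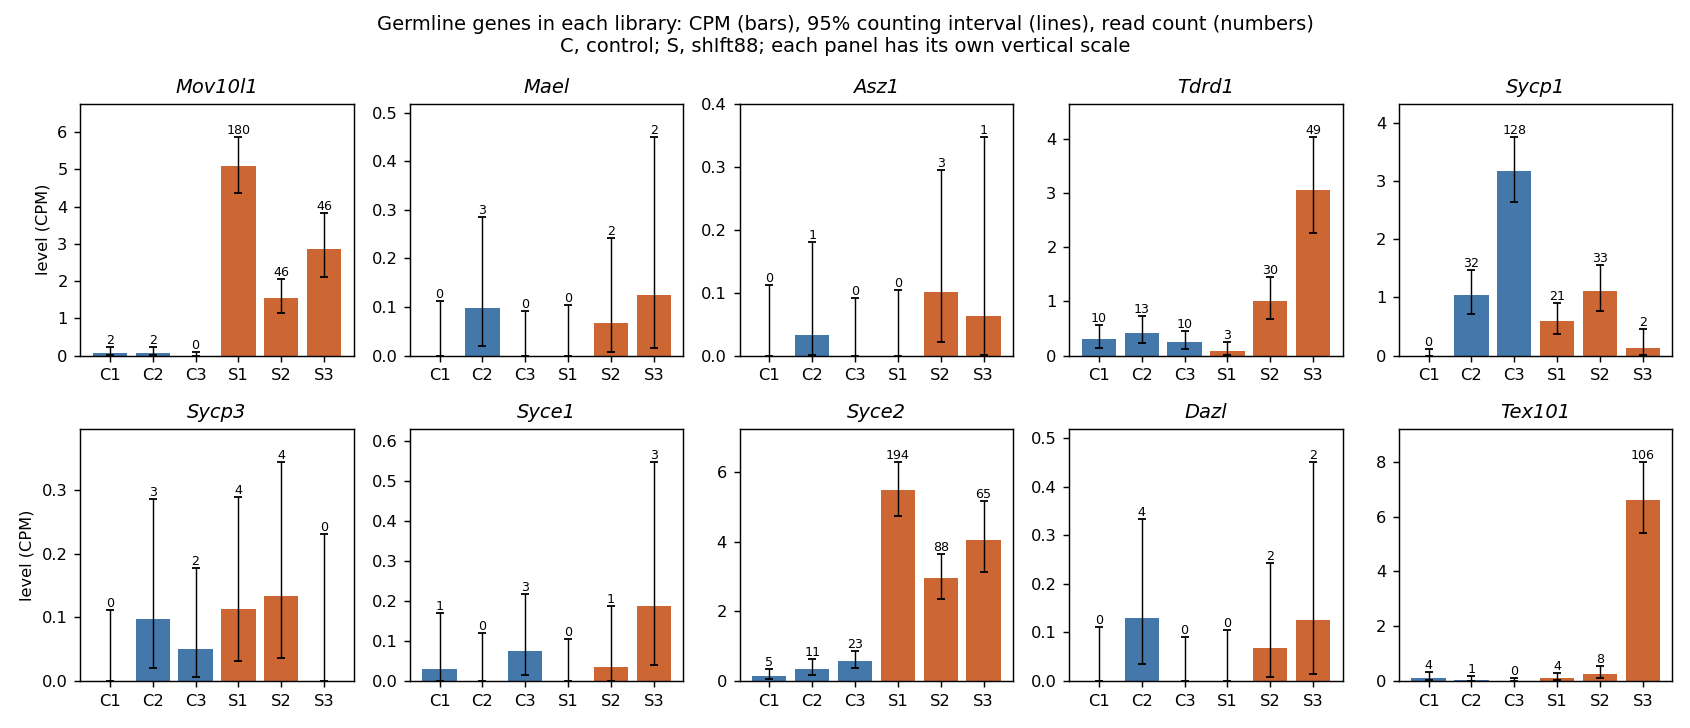
Level of each of the 10 germline genes (CPM, vertical axis, starting at 0 with its own scale in each panel) in controls (C1 to C3) and libraries labelled shIft88 (S1 to S3). Lines are 95% exact Poisson intervals of the count, which cover counting error only, and the numbers are read counts. Mov10l1 and Syce2 are above every control in S1 to S3, Tex101 reaches 6.62 CPM in S3 alone, and Sycp1 is highest in C3 at 3.16 CPM.

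Of the 4 genes of the synaptonemal complex, Syce2 was the one whose groups did not overlap. Syce2 is a protein of the central element, the middle bar of the zipper. Its counts were 5, 11 and 23 in the controls, against 194, 88 and 65 under the shIft88 label, which were 0.151, 0.357 and 0.568 CPM against 5.48, 2.95 and 4.06 CPM. The lowest library labelled shIft88 stood above the highest control, and the means were 0.359 ± 0.208 and 4.16 ± 1.27 CPM (SD, n = 3 each). The summed counts, 347 against 39, gave a ratio of 11.4 (95% exact binomial interval 8.19 to 16.3, counting error only). The log2 difference was 2.44, with 2.22 among the libraries with many olfactory receptor reads and 2.80 among the others. Syce2 and the opposite-strand gene Gcdh overlap in the GENCODE M21 annotation (GRCm38) but share 0 exon bases there. Gcdh, at 20.7 to 28.2 CPM in the controls, against 26.0 to 37.5 CPM under the shIft88 label, overlapped between the groups.

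Syce1, the partner of Syce2 in the central element, had 1, 0 and 3 reads in the controls, against 0, 1 and 3 under the shIft88 label. Its highest level was 0.187 CPM, in shIft88 3. Sycp3, which builds the lateral elements along each chromosome, had 0, 3 and 2 reads in the controls, against 4, 4 and 0 under the shIft88 label. None of these counts passed 4. Sycp3 lies inside Chpt1, a lipid synthesis gene on the other strand that was at 23.6 to 64.5 CPM, and the annotation gives them 660 shared exon bases, so the origin of the few Sycp3 reads is uncertain where strand was not used in counting.

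Sycp1 forms the transverse filaments that bridge the zipper, and it varied more within the groups than between them. Its counts were 0, 32 and 128 in the controls, against 21, 33 and 2 under the shIft88 label, or 0, 1.04 and 3.16 CPM against 0.593, 1.11 and 0.125 CPM. Control 3 was highest and control 1 had no read, so the controls enclosed all libraries labelled shIft88. The log2 difference was -0.78 and became 0.12 without control 3. The lowest levels, in control 1 and shIft88 3, fell in the libraries with least RNA of mature neurons. Summed over 8 neuron markers, the level was 15.0, 164 and 480 CPM in the controls, against 402, 174 and 32.1 CPM under the shIft88 label. All 8 markers had reads in every library except Gabra6, a marker of granule neurons, which was at 0 in control 1. Some markers of other brain cells also had an order close to that of Sycp1. Summed over 6 oligodendrocyte markers, all with reads in every library, the level was 21.7, 118 and 252 CPM in the controls, against 63.2, 99.4 and 23.2 CPM under the shIft88 label. This is the order of the libraries in Sycp1, save that control 2 and shIft88 2 change places. Gfap, the filament protein of astrocytes, had the same order as the oligodendrocyte sum, at 0.393, 71.6 and 188 CPM in the controls, against 37.5, 67.1 and 1.75 CPM under the shIft88 label. The astrocyte markers together did not have that order. All 6 had reads in every library, and their sum was 325, 508 and 797 CPM in the controls, against 884, 686 and 320 CPM under the shIft88 label. Gja1, also of the 6, was lowest in control 3, at 124 CPM. The part of neurons, oligodendrocytes and astrocytes in the Sycp1 values was not tested.

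Dazl and Tex101 are germ cell genes outside both machines. Dazl, an RNA-binding protein that drives translation in germ cells, had 0, 4 and 0 reads in the controls, against 0, 2 and 2 under the shIft88 label. Like Mael and Asz1 it had reads only in the libraries with many olfactory receptor reads. Tex101, a surface protein of developing sperm, had 4, 1 and 0 reads in the controls, against 4, 8 and 106 under the shIft88 label. Its level of 6.62 CPM in shIft88 3 was the highest of the 10 genes in any library on the TMM scale. With library totals alone it was 3.95 CPM, below Syce2 at 5.74 CPM and Mov10l1 at 5.33 CPM in shIft88 1. In the other 5 libraries Tex101 lay between 0 and 0.268 CPM. Without shIft88 3 the log2 difference fell from 2.36 to 0.33, so the difference in Tex101 rests on 1 library. That library also had the low scaling factor, and with library totals alone the difference was 1.82. In shIft88 3, 1 olfactory receptor row had a count of 106 or more.

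Per kb of exon (GENCODE M21), which allows levels of different genes to be compared, Syce2 was highest among the 10 in the libraries labelled shIft88, at a mean of 2.11 CPM per kb. Tex101 followed at 1.41 CPM per kb from 1 library, and Mov10l1 at 0.757 CPM per kb. In the controls Sycp1 was highest, at 0.394 CPM per kb, ahead of Syce2 at 0.182 CPM per kb. The spread between libraries of Sycp1 and Tex101 was larger than the gaps between these means.

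The 3 tested genes with the pattern most like each of the 5 genes that reached a group mean of 1 CPM were found by the root mean square distance of centred log2(CPM + 0.5) over the 6 libraries. Syce2 was among the 3 nearest of Mov10l1 and Mov10l1 among the 3 nearest of Syce2, at a distance of 0.33. The nearest to Syce2 was Bcas1, a gene of the oligodendrocyte lineage, at 0.20, and the nearest to Mov10l1 was the zinc finger gene Zfp804b at 0.27. Bcas1 was at 3.24, 5.59 and 8.12 CPM in the controls, against 41.2, 26.5 and 40.0 CPM under the shIft88 label. The 6 oligodendrocyte markers leaned the other way. All 6 had a lower estimate under the shIft88 label, with a median log2 fold change of -1.39, and 0 passed. For Tex101 the nearest were 4930502E18Rik at 0.14, Sfmbt2 at 0.28 and then Psma8, the testis-specific proteasome subunit, at 0.34. Psma8 was at 0.151, 0.292 and 0.0988 CPM in the controls, against 0.339, 0.637 and 15.4 CPM under the shIft88 label. All 3 shared with Tex101 a high level in shIft88 3 alone, where 4930502E18Rik was at 10.4 CPM and Sfmbt2 at 7.24 CPM. For Sycp1 the nearest were the gene models Gm10593 and Gm3892 and the row 3110082D06Rik, at 0.07 to 0.14. With 6 libraries many genes can share a pattern, so the distances describe these libraries only.

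Other germline genes, taken from lists of the piRNA pathway, meiosis and germ cell identity, were mostly low, and none passed the test. Of 18 further piRNA genes 9 were tested, 6 with a higher and 3 with a lower estimate in the libraries labelled shIft88, and their median log2 fold change was 0.54 against -0.012 over all tested genes. Scaled by library totals alone, the estimates split into 5 higher and 4 lower (median 0.15, against -0.33 over all tested genes). Piwil2, the PIWI protein that binds Tdrd1, was at 30.3, 2.57 and 60.0 CPM in the controls, against 102, 35.3 and 22.6 CPM under the shIft88 label. Ddx4, the germ cell helicase also called Vasa, had at most 11 reads in any library. Piwil2 thus lay well above the 10 genes while its levels overlapped between the groups.

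Of 28 further meiosis genes 10 were tested, 6 with a higher and 4 with a lower estimate, with a median log2 fold change of 0.08. Scaled by library totals alone, they split into 4 higher and 6 lower (median -0.32). Tex15, a germ cell protein that acts with PIWI proteins in transposon silencing, had the highest mean level of the list, at 246, 587 and 43.3 CPM in the controls, against 688, 846 and 1372 CPM under the shIft88 label. Every library labelled shIft88 exceeded every control for 3 of the 28, Tex15, Msh5 and Rec8, against 4.10% of all rows with a read. That held for Tex15 with library totals alone, while Msh5 and Rec8 overlapped, as they did with DESeq2 size factors, and Rec8 had 0 to 6 reads. Tex15 did not pass (log2 fold change 1.73, adjusted p = 0.9995, edgeR). Per kb of exon Tex15 averaged 30.3 CPM in the controls, against 101 CPM under the shIft88 label. Ythdc2, Psmc3ip and Mnd1 overlapped between the groups at 5.20 to 36.7 CPM, but Psmc3ip was lower in every library labelled shIft88 with library totals alone.

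All 10 tested genes of the germ cell identity list, of 32 present, had a higher estimate under the shIft88 label, with a median log2 fold change of 2.62, and 0 passed. By library totals alone, 8 of the 10 had a higher estimate. Genes this low pass the filter through the group in which they are high, so that median supports nothing. In 6 of the 32 the groups did not overlap, all higher: Dppa2, Tex13, Xlr3a, Xlr3b, Xlr4a and Tuba3b. The share over all rows with a read was 4.10%, but the lists were chosen with earlier results of these data known. Nothing is thus read from this count or from the same count in the other lists. With library totals alone 5 of the 6 kept that order and Dppa2 overlapped, at 1.34 CPM in shIft88 3 against 2.10 CPM in control 1. The 3 Xlr rows belong to an X-linked family with near-identical copies, whose reads may be shared between rows. Tuba3b, a testis tubulin, had 0 reads in all controls, against 4, 7 and 3 under the shIft88 label, which are few reads. A count of 4 or more was reached by 0.480% of olfactory receptor rows in shIft88 1. In shIft88 2, 1.36% reached 5 or more, and in shIft88 3, 2.48% reached 3 or more. Dppa2, a factor of pluripotent and germ cells, was at 1.97, 0.0974 and 0 CPM in the controls, against 3.95, 7.05 and 2.25 CPM under the shIft88 label. Tex14, a protein of the bridges between germ cells, was at 1.45, 0.780 and 2.27 CPM in the controls, against 2.06, 8.29 and 26.7 CPM under the shIft88 label, so shIft88 1 fell inside the range of the controls.

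The library shIft88 3 held the highest level for 17 of the germ cell identity genes with a read, for 12 of the meiosis genes, for 6 of the piRNA genes and for 4 of the 10 germline genes. With library totals alone in place of TMM these became 13, 6, 1 and 3, so part of that rank follows the scaling. Chosen after their values were seen, Tex19.1 and Gpat2 reached 1.81 and 19.6 CPM in shIft88 3 and were at most 0.168 and 3.08 CPM in the other libraries.

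**Figure D4:**
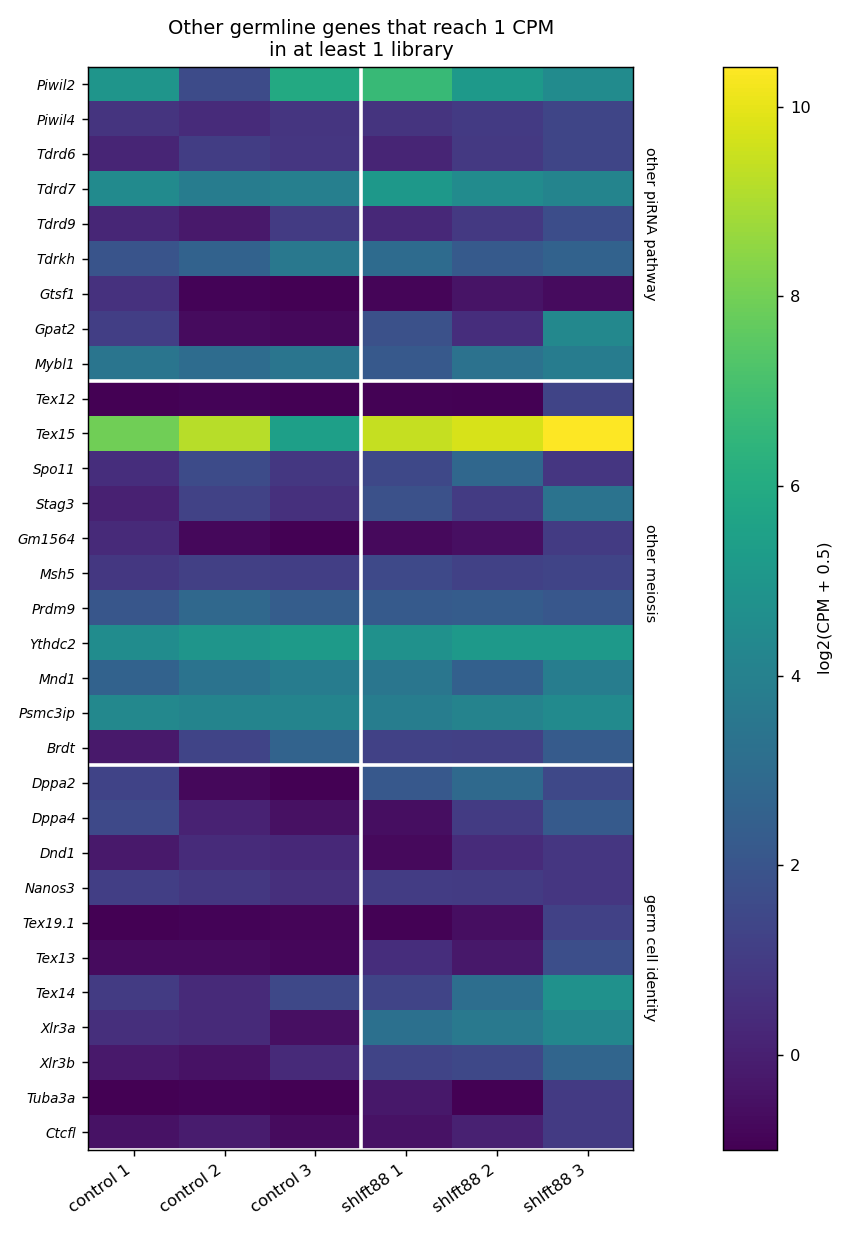
Level as log2(CPM + 0.5) of 31 further germline genes (rows, by list) that reached 1 CPM in at least 1 of the 6 libraries (columns). Tex15 is the brightest row in 5 of 6 libraries and Piwil2 in control 3, and Xlr3a and Xlr3b are brighter in every library labelled shIft88 than in every control.

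Genes of late sperm development were low. Of 13 spermatid genes, 0 reached 1 CPM in any library, and their summed level was 0.182 to 0.963 CPM in the controls, against 1.07 to 1.44 CPM under the shIft88 label. The protamines Prm1 and Prm2 and the transition proteins Tnp1 and Tnp2 had at most 2 reads in a library. Zpbp had 0, 3 and 10 reads in the controls, against 23, 13 and 3 under the shIft88 label. Odf1 had 2, 5 and 22 reads in the controls, against 3, 4 and 2. Both thus passed a count of 10 in some libraries. Of 6 markers of the body cells of the testis, Star reached 1 CPM and the other 5 did not. Star, which carries cholesterol into mitochondria in steroid-making cells, was at 5.48, 1.07 and 2.72 CPM in the controls, against 1.02, 3.49 and 1.44 CPM under the shIft88 label, so the groups overlapped. Insl3, the hormone of Leydig cells, had at most 1 read, and Amh, of Sertoli cells, was at 0.182 to 0.422 CPM. Markers of choroid plexus were high in 1 library: the 5 markers summed to 0.543 to 14.4 CPM in the controls, to 1445 CPM in shIft88 1 and to 3.06 and 3.72 CPM in the others labelled shIft88. Mov10l1 and Syce2 were also highest in shIft88 1. Without that library their log2 differences were 2.32 and 2.22, against 2.76 and 2.44 with all libraries.

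The genes that silence germline promoters did not pass between the groups. Of 13 DNA methylation genes 12 were tested, 4 with a higher and 8 with a lower estimate and a median of -0.25, which became 2, 10 and -0.60 with library totals alone. Uhrf1 was at 82.2, 82.0 and 128 CPM in the controls, against 66.6, 37.2 and 44.4 CPM under the shIft88 label. That is an order without overlap, which 3.71% of tested genes shared in that direction. Of the 13 genes, 2 were lower without overlap, Uhrf1 and Tet2, and 0 were higher without overlap. With library totals alone Hells was also lower without overlap. Dnmt1 was at 140, 154 and 193 CPM in the controls, against 172, 95.4 and 110 CPM under the shIft88 label, and Dnmt3b at 14.0, 21.2 and 14.9 against 15.9, 13.7 and 13.2 CPM, both overlapping. The part of these genes in the levels of the 10 germline genes was not tested. Of 17 repressors of germline genes all were tested, 9 with a higher and 8 with a lower estimate and a median of 0.02, which became 2, 15 and -0.31 with library totals alone. The E-box binder Mga was at 268 ± 30.9 CPM in the controls, against 250 ± 44.7 CPM under the shIft88 label (SD, n = 3 each), a difference smaller than the spread. Its partner E2f6 was at 8.17, 10.7 and 9.38 CPM in the controls, against 4.46, 4.80 and 8.05 CPM under the shIft88 label. E2f6 was the 1 gene of the 17 lower without overlap, against 3.71% of tested genes. Rybp was the 1 higher without overlap, against 4.68% of tested genes, and it overlapped with library totals alone.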

How the data were processed

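Gene counts of 6 libraries (3 controls and 3 libraries labelled shIft88, grouped by their descriptions) were used. Per the labels' protocols, libraries were made from total RNA with a stranded TruSeq kit. The submitters' processing notes name BWA and the build mm9. Which program counted, with what annotation and strand setting, is not stated there. Values as deposited are raw counts per gene symbol, 26802618 to 33772559 per library. Closing tallies were left out, of which reads without a feature took 18.8% to 39.5% of each library.

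CPM values were computed here with TMM factors. The test was that of edgeR 4.0.16 under R 4.3.3 (filterByExpr, glmQLFit with robust=TRUE, two-sided glmQLFTest, Benjamini-Hochberg adjustment over 16768 genes), checked on simulated data. The simulation gave every gene the same spread beyond counting error, so it does not show what the test can recover in these libraries. Exon lengths and overlaps come from GENCODE M21 (GRCm38), used by gene name, since an mm9 annotation was not used here, and promoter windows from RefSeq (GRCm38.p6). Alternatives were DESeq2 1.42.0, limma-voom of limma 3.58.1, other scalings, filters and pseudocounts, leaving out libraries, and libraries split by whether more than 100 olfactory receptor rows had a read.

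The genes and lists were chosen with earlier results of these data known. Named were all 10 germline genes, genes of highest mean CPM in each list and some of the genes of nearest pattern. Other genes were chosen after their values were seen.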

Additional observations from a re-analysis of the deposited data

How the results depend on the processing

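The number of genes called by edgeR was 0 with all scalings, with robust=FALSE, with a filter of 1 CPM in 3 libraries, with a term for libraries with many olfactory receptor reads and without each library in turn (0 to 0). It was 6 without a filter (5 higher, 1 lower) and 75 with DESeq2. The number of germline genes higher in every library labelled shIft88 than in every control was 2, and 2 under each scaling and with the mean olfactory receptor count subtracted. Leaving out each library in turn gave 2 to 5, the highest without shIft88 1, and it was 6 within the 3 libraries with many olfactory receptor reads, where 1 control stands alone. Taking libraries away can only keep or raise such a count. The share over all rows was not computed for these subsets, so nothing is read from the rise. These counts of overlap, and the counts by list under other scalings, were chosen after seeing the data. Over 12 alternatives the log2 difference ran from 2.26 to 4.52 for Mov10l1 and from 2.22 to 3.22 for Syce2, each highest with a pseudocount of 0.1 CPM, and from 0.13 to 4.01 for Tex101. It changed sign in 1 alternative for Tdrd1 (-0.41) and in 1 for Sycp1 (0.12). For Mael, Asz1, Sycp3, Syce1 and Dazl it stayed between -0.14 and 0.48, and depth limits what 0 to 4 reads can show. No paired analysis was possible because replicate numbers follow accession order only.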
